A study of Mus musculus with 32 samples.

Results

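The Hoxd cluster holds 9 protein-coding homeobox genes, Hoxd13, Hoxd12, Hoxd11, Hoxd10, Hoxd9, Hoxd8, Hoxd3, Hoxd4 and Hoxd1, which lie on the plus strand of mouse chromosome 2 in that order of start sites. They were taken by name, all 9 of them, from 21887 protein-coding genes with coordinates in the RefSeq annotation of GRCm38.p6, the assembly behind mm10. For each gene the share of the gene plus 5 kb on each side that lay in called peaks was computed in every library, and this covered fraction, between 0 and 1, is the value given throughout. The stretch from 5 kb before Hoxd13 to 5 kb after Hoxd1 is chr2:74663225-74770142 and measures 107 kb.

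Hox genes encode transcription factors that give cells along the body axis and in the limbs their positional identity, and the order of the genes on the chromosome follows the order of their use. Where they are silent, Hox clusters are among the best known targets of the Polycomb repressive complexes: PRC2 places the histone H3 mark H3K27me3 and PRC1 places the histone H2A mark H2AK119ub, a ubiquitin. Asxl1 is the partner that lets the enzyme Bap1 remove ubiquitin from H2A, and it has also been tied to PRC2. In blood progenitors the Hoxa and Hoxb genes are the better known players, and the Hoxd genes belong chiefly to limb, trunk and genital development.

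The marks were profiled by CUT&Tag, in which a transposase tethered to an antibody cuts and tags nearby DNA, in mouse bone-marrow cells immortalized with HoxB8 and kept without estrogen for 48 h before harvest. The double group carried the Asxl1 guide (sgRNA Asxl1 B2) and pMICH-CSF3R-T618I, the G-CSF receptor with an activating change known from chronic neutrophilic leukaemia. The Asxl1 group carried the same guide and the vector pMICH-Empty, the CSF3R group a non-targeting guide and pMICH-CSF3R-T618I, and the control group the non-targeting guide and pMICH-Empty. H3K27me3, H2AK119ub and H3K4me1, a mark of enhancers and of promoter flanks, each had 2 double, 3 Asxl1, 3 CSF3R and 2 control libraries, 30 in all. All groups shared the HoxB8 immortalization, the growth conditions and the estrogen removal. Whether a genotype was 1 clone or a pool of cells, and whether replicates were separate cultures, is not given in the sources used here, so p-values measure the spread between these libraries, which may be technical. Peak positions hold no read-out of the Asxl1 cut or of the receptor.

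Peak lists give positions only, so sequencing depth is unknown and no counting interval can be given. Total peak length per library ran from 4.73 to 53.0 Mb for H3K27me3, from 11.8 to 39.1 Mb for H2AK119ub and from 26.6 to 47.2 Mb for H3K4me1. The H3K27me3 library Asxl1 2 stood apart, with 53.0 Mb of peaks against 4.73 and 12.4 Mb in Asxl1 1 and 3, and the counts and means of H3K27me3 that rest on it are given with and without it. The labelled cell type was checked by H3K4me1, which covered at least 0.1 of the window in all 10 libraries at 6 of 11 myeloid progenitor genes, at 0 of 6 erythroid and megakaryocyte genes, at 0 of 4 B cell genes, at 0 of 4 T cell genes and at 1 of 5 stromal and endothelial genes. The granule genes Mpo, Elane, Prtn3 and Ctsg and the myeloid regulators Cebpa, Cebpe and Spi1 had no H3K27me3 peak in any library.

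The promoters shown here are those on which the account of the Polycomb marks turns: Hoxd13 and Hoxd12, which had the most constant marks, Hoxd8, the 1 Hoxd gene with a called change in H2AK119ub, and Hoxd4, which had almost no H2AK119ub. Each line gives the 250 bases before the start site from RefSeq, build GRCm38.p6, plus strand, with every CG dinucleotide in capitals.
Hoxd13, chr2:74667975-74668224: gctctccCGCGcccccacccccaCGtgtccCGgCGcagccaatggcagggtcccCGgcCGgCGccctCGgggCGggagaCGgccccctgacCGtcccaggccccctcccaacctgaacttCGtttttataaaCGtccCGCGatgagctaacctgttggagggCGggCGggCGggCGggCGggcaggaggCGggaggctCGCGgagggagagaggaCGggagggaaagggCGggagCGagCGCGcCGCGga
Hoxd12, chr2:74674763-74675012: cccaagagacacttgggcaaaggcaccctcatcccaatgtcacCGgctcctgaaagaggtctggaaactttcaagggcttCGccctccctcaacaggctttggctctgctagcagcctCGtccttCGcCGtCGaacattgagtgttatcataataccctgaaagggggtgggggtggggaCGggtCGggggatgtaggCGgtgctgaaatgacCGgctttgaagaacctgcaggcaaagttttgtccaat
Hoxd8, chr2:74704365-74704614: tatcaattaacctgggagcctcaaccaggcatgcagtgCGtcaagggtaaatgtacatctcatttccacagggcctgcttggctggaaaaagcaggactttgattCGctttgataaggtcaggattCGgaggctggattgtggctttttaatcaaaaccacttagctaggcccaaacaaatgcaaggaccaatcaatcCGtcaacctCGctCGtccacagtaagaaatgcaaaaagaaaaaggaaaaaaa
Hoxd4, chr2:74721728-74721977: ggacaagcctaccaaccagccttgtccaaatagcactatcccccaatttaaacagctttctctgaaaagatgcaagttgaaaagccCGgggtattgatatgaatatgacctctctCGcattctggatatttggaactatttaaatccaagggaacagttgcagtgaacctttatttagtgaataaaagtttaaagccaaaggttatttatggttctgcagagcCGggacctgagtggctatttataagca

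CG dinucleotides (the same letters on both strands) were counted over 300 bases, from 250 before to 50 after the start site, for the 10 start sites that RefSeq gives the 9 genes. The count was 37 at Hoxd13, a value that 5.58% of 32851 promoters reached or passed, 13 at Hoxd12 (37.9%), 6 at Hoxd8 (56.4%) and 4 at Hoxd4 (68.6%). Over the 10 Hoxd promoters the median was 20, against 7 over all promoters. Hoxd13, a gene of digit and genital development, had an H3K27me3 peak over its promoter window in 9 of 10 libraries and an H2AK119ub peak in 10 of 10. Hoxd12, its limb neighbour, had both in 10 of 10. The Hoxd8 window carried each mark in 7 of 10 libraries, and that of Hoxd4, a hindbrain and neck gene, carried H3K27me3 in 3 and H2AK119ub in 0. The order did not follow the number of CG dinucleotides alone: Hoxd1, with 29, had H2AK119ub in 4 libraries, and Hoxd3, with 20, had it in 1.

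H3K27me3 peaks lay along the whole cluster, in different amounts by genotype. Peaks covered 25.2 and 24.95 kb of the 107 kb in the double libraries, 7.25, 60.9 and 20.65 kb in the Asxl1 libraries, 79.2, 71.1 and 74.6 kb in the CSF3R libraries, and 47.45 and 53.3 kb in the control libraries. The CSF3R libraries were thus highest, the controls came next, and the double libraries lay below both, while the Asxl1 libraries ranged from below the double to above the control libraries. The libraries are bulk, so a mark lost from some cells and a mark weakened in all cells cannot be told apart. The Asxl1 mean of 29.6 kb came to 13.95 kb without Asxl1 2. The merged peak list of 2 IgG libraries, a background control, covered 2.0 kb of the same stretch, or 1.87%, in 3 peaks.

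The layout of the peaks differed along with their total. CSF3R libraries had 15 peaks each in the stretch, with the widest at 31.45, 16.1 and 13.5 kb, so that long runs held several genes at once. Double libraries had 22 and 25 peaks, of at most 4.15 and 3.25 kb, and control libraries 23 and 22, of at most 7.1 and 7.0 kb. Asxl1 libraries had 8, 22 and 19, of at most 3.1, 7.95 and 3.4 kb. The double and control libraries had similar numbers of peaks, but of different length, with a median peak of 0.775 and 0.650 kb in the double and 1.4 and 2.125 kb in the control libraries.

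**Figure D1:**
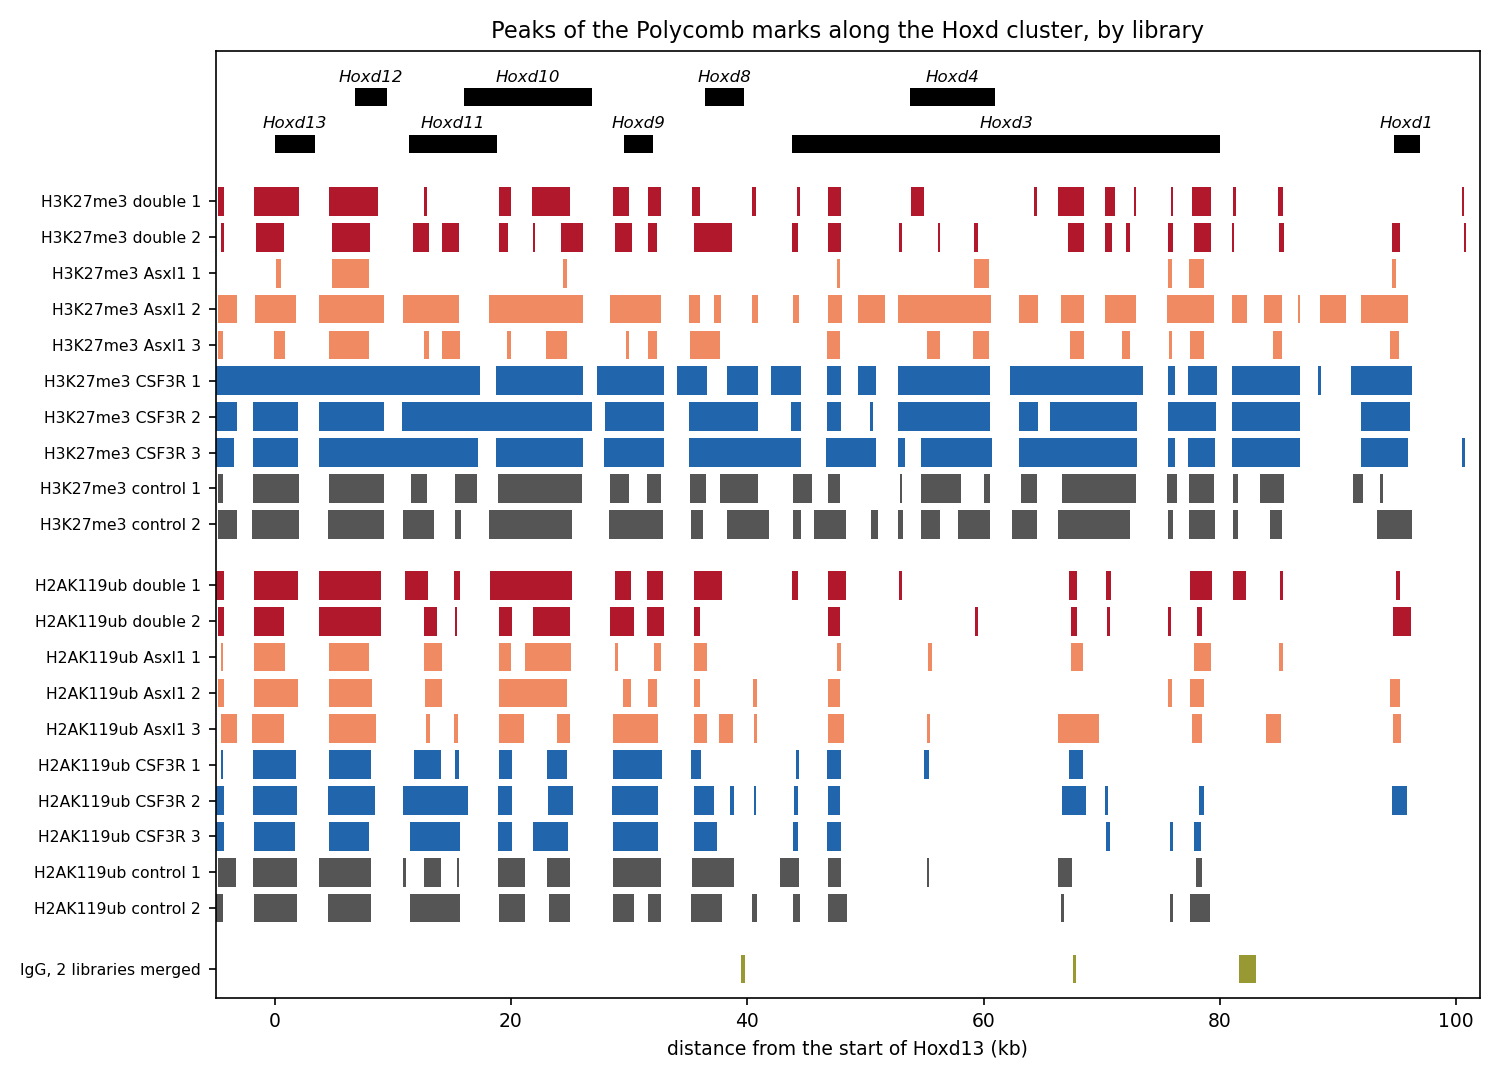
Peaks of H3K27me3 and H2AK119ub in each library (rows) along the Hoxd cluster, with the merged IgG list in the bottom row and the gene bodies as black bars; the x axis gives the distance from the start of Hoxd13 in kb. H3K27me3 runs through most of the stretch in the 3 CSF3R libraries and breaks into short peaks in the double libraries, while more of the H2AK119ub length lies on the left side than on the right in every library.

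Total peak length of the library differed between the groups too, but did not order the libraries as the cluster did, as the plot of the cluster against the library shows. Double libraries had 19.2 and 14.2 Mb of H3K27me3 peaks, Asxl1 libraries 4.73, 53.0 and 12.4 Mb, CSF3R libraries 31.3, 34.1 and 42.2 Mb, and control libraries 15.9 and 22.7 Mb. Double 1 had more peak length than control 1 over the library and less in the cluster, and Asxl1 2, with the most over the library, had less in the cluster than any CSF3R library. Per Mb of peaks in the library, the cluster held 1311 and 1758 bp in the double, 1532, 1149 and 1664 bp in the Asxl1, 2528, 2085 and 1769 bp in the CSF3R and 2986 and 2348 bp in the control libraries. On that scale the control libraries overlapped the CSF3R libraries and had the higher mean, 2667 against 2127 bp. The order of the control and CSF3R groups in kb thus turned round. The double libraries stayed below both groups, with double 2 only just below CSF3R 3. The only fit that took the library totals into account at single genes was that with covered length as a covariate, given with those genes. Covered length is itself peak length of the mark and differed by genotype, so that fit cannot tell the totals and the genotype fully apart.

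**Figure D2:**
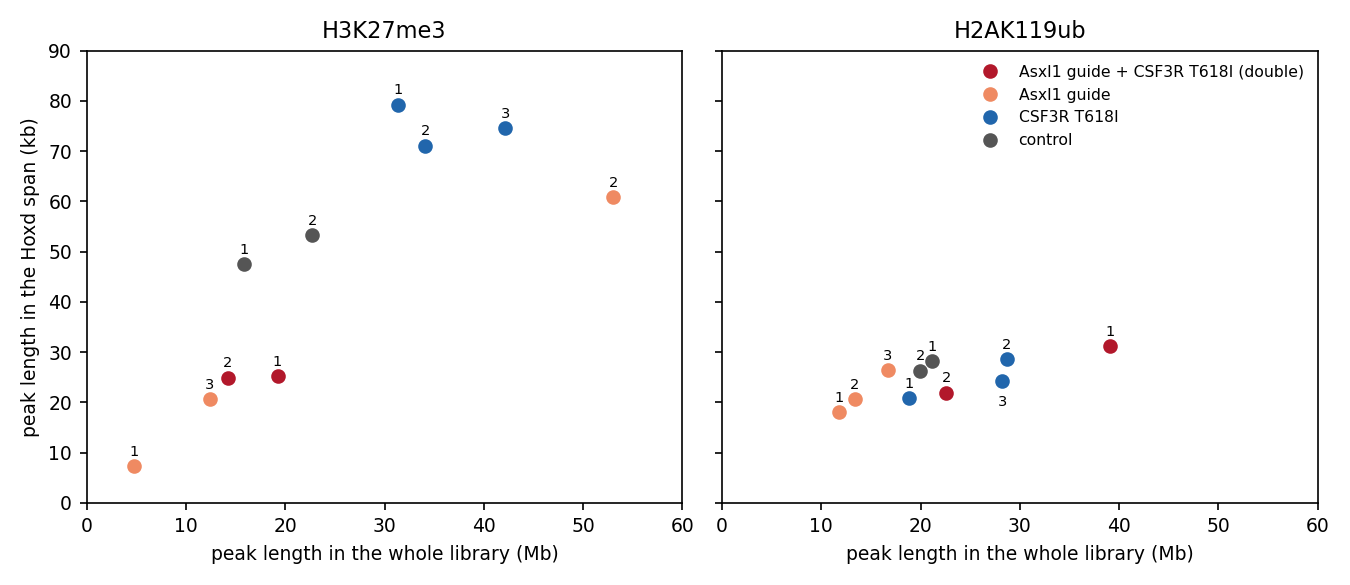
Peak length within the Hoxd stretch (y axis, kb) against peak length in the whole library (x axis, Mb), 1 point per library with its replicate number, for H3K27me3 (left) and H2AK119ub (right). H3K27me3 in the cluster ranges from 7.25 to 79.2 kb, with the double libraries near 25 kb, and H2AK119ub stays between 18.05 and 31.2 kb.

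The main comparison for H3K27me3 was double against CSF3R, that is, the Asxl1 guide in cells with the mutant receptor. All 9 genes had lower covered fractions in the 2 double libraries than in any of the 3 CSF3R libraries, a pattern seen in 83.8% of the 2755 gene windows tested, and 5 of 9 (Hoxd12, Hoxd11, Hoxd8, Hoxd3 and Hoxd4) were called lower by limma with Benjamini-Hochberg adjustment, against 13.1% of all windows. The members' median difference was -0.486, against -0.130 over all windows tested. Those windows were not matched to the Hoxd genes for level, and a window with a low fraction in CSF3R libraries cannot fall as far. All 9 genes passed the filter, which asked for 0.1 or more in 2 or more libraries. Neighbouring windows share bases and the 9 values are not independent: the window of Hoxd10 touches those of 4 other Hoxd genes, and only that of Hoxd1 touches none.

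Hoxd11 and its neighbours at the 5′ end act in the forearm, the kidney and the digits. At Hoxd11 (chr2:74679558-74687016) the fraction was 0.333 and 0.320 in the double, 0.0941, 0.762 and 0.273 in the Asxl1, 0.920, 0.911 and 0.911 in the CSF3R, and 0.631 and 0.668 in the control libraries. The double libraries lay below the other receptor group by -0.588 ± 0.156 (SE; limma adjusted p = 0.0450), and CSF3R libraries lay close together above all others. Hoxd12 (chr2:74675013-74677705) had 0.373 and 0.390 in the double, 0.244, 0.724 and 0.323 in the Asxl1, 1, 0.740 and 0.862 in the CSF3R, and 0.488 and 0.602 in the control libraries. Its window lay wholly within peaks in CSF3R 1, and double minus CSF3R was -0.486 ± 0.134 (SE; limma adjusted p = 0.0483).

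Hoxd8 (chr2:74704615-74707933), which acts along the trunk, closes the 5′ group. It had 0.176 and 0.334 in the double, 0, 0.292 and 0.248 in the Asxl1, 0.693, 0.611 and 0.829 in the CSF3R, and 0.498 in both control libraries. No Asxl1 library reached the controls, and double minus CSF3R was -0.456 ± 0.0969 (SE), with the lowest adjusted p of the 9 genes in limma (0.0274). In Asxl1 1 no H3K27me3 peak touched the Hoxd8 window.

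Hoxd3 (chr2:74711993-74748271), a gene of the neck vertebrae, is annotated over 36279 bp and encloses Hoxd4. H3K27me3 covered 0.185 and 0.145 of its window in the double, 0.0648, 0.543 and 0.158 in the Asxl1, 0.724, 0.634 and 0.724 in the CSF3R, and 0.464 and 0.512 in the control libraries. The double and control libraries did not overlap either, and double minus CSF3R was -0.529 ± 0.119 (SE; limma adjusted p = 0.0321). Hoxd4 (chr2:74721978-74729160), known to respond to retinoic acid, had 0.0757 and 0.0407 in the double, 0.0727, 0.681 and 0.145 in the Asxl1, 0.757, 0.580 and 0.674 in the CSF3R, and 0.317 and 0.425 in the control libraries. Its difference between double and CSF3R, -0.612 ± 0.157 (SE; limma adjusted p = 0.0432), was the largest of the 9, and its level in the double libraries was close to that of Asxl1 1.

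The other members had lower double values in the same comparison without passing the threshold in limma. Hoxd13 (chr2:74668225-74671603) had 0.602 and 0.437 in the double, 0.265, 0.729 and 0.355 in the Asxl1, 1, 0.766 and 0.753 in the CSF3R, and 0.602 and 0.707 in the control libraries. It kept the most H3K27me3 of the 9 genes in the double libraries, and its difference to CSF3R was the smallest, -0.320 ± 0.136 (SE; limma adjusted p = 0.109). Hoxd10 (chr2:74684273-74695106), which is needed in motor neurons of the hindlimb, had 0.298 and 0.358 in the double, 0.0168, 0.770 and 0.223 in the Asxl1, 0.878, 0.950 and 0.842 in the CSF3R, and 0.591 and 0.650 in the control libraries (double minus CSF3R -0.562 ± 0.178, SE; limma adjusted p = 0.0640).

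Hoxd9 (chr2:74697763-74700208), which acts with Hoxa9 in the forelimb, had all CSF3R libraries above the control libraries and the double libraries below both. Its fraction was 0.288 and 0.426 in the double, 0.0151, 0.553 and 0.249 in the Asxl1, 0.790, 0.743 and 0.691 in the CSF3R, and 0.457 and 0.497 in the control libraries (double minus CSF3R -0.384 ± 0.129, SE; limma adjusted p = 0.0712). Hoxd1 (chr2:74762980-74765142), known in the mouse for its part in pain-sensing neurons, had the least of the mark. There the fraction was 0.0164 and 0.0699 in the double, 0.0288, 0.40 and 0.0617 in the Asxl1, 0.428, 0.337 and 0.345 in the CSF3R, and 0.0863 and 0.247 in the control libraries (double minus CSF3R -0.327 ± 0.106, SE; limma adjusted p = 0.0663).

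The count of 5 depended on which libraries entered the fit. It was 9 of 9 lower without Asxl1 2, when 70.1% of all windows were called lower, and 8 of 9 without Asxl1 1 (27.3%). It was 0 without any 1 of Asxl1 3, CSF3R 1, CSF3R 2, CSF3R 3, double 1, double 2, control 1 or control 2. The share of all windows called in these fits is not given here, so this loss was not set apart from a change over all windows. With the log2 of the library's covered length as a covariate 8 of 9 were called lower, against 27% of all windows, and every difference kept its sign in each of the 20 alternatives run.

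**Figure D3:**
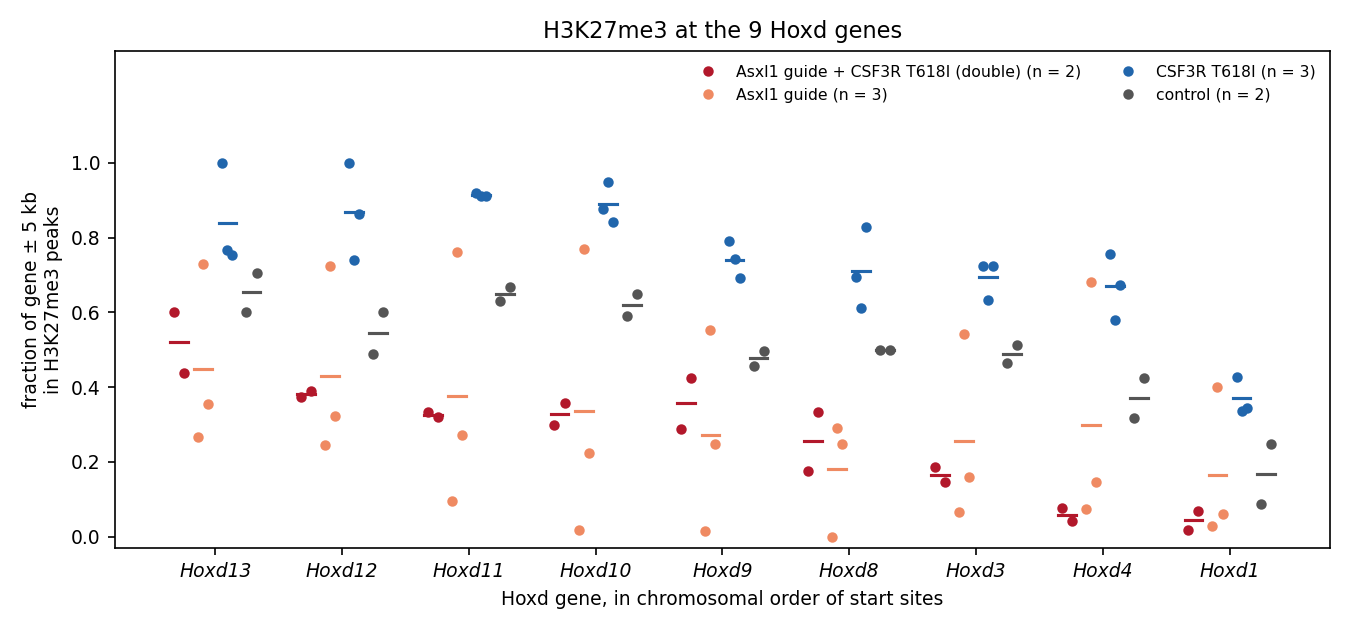
Covered fraction of H3K27me3 (y axis) at the 9 Hoxd genes ± 5 kb, in chromosomal order, with 1 point per library and a bar for the group mean. CSF3R libraries are above the double libraries at every gene, and the 3 Asxl1 libraries are spread from near 0 to 0.770, with Asxl1 2 highest at each gene.

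Asxl1 against control asked what the guide did without the mutant receptor. The Asxl1 libraries lay wholly below the controls at 1 of 9 genes, Hoxd8, against 7.73% of windows tested. limma called 0 of 9 Hoxd genes lower and 0 of 2755 windows in all (0%), with 1 Hoxd gene at an unadjusted p under 0.05, again Hoxd8 (Asxl1 minus control -0.318 ± 0.0969, SE; adjusted p = 0.878). At each of the 9 genes Asxl1 1 and Asxl1 3 lay below both controls, and Asxl1 2 lay above both at Hoxd13, Hoxd12, Hoxd11, Hoxd10, Hoxd9, Hoxd3, Hoxd4 and Hoxd1. Without Asxl1 2, limma called 7 of 9 lower, against 15.4% of windows.

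CSF3R against control asked what the receptor did alone. All 3 CSF3R libraries were above both controls at 9 of 9 genes, against 71.5% of windows. limma called 0 of 9 higher, with 1 (Hoxd12) at an unadjusted p under 0.05, and 0.907% of windows were called higher. The differences ran from 0.186 ± 0.136 at Hoxd13 to 0.323 ± 0.134 at Hoxd12 (SE), with a median of 0.264 over the 9 genes and 0.0972 over all windows, which were not matched for level. Without Asxl1 2 in the shared estimate of the spread, 7 of 9 were called higher, against 35% of windows. With covered length as a covariate no Hoxd gene was called. This comparison and double against CSF3R use the same 3 CSF3R libraries, so their opposite signs are not independent.

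Double against control had all double libraries below the controls at 8 of 9 genes, against 40.8% of windows; at Hoxd13, double 1 equalled control 1 to 3 decimals. limma called 0 of 9 (0% of windows), with 2 at an unadjusted p under 0.05, Hoxd8 (-0.243 ± 0.106, SE) and Hoxd3 (-0.323 ± 0.131, SE), and 3 of 9 without Asxl1 2, against 3.85% of windows. Double against Asxl1 had 0 of 9 called (0% of windows) and 0 at an unadjusted p under 0.05 in limma, with differences from -0.242 ± 0.157 at Hoxd4 to 0.0845 ± 0.129 at Hoxd9 (SE). Without Asxl1 2 it again had 0 called, 3 had an unadjusted p under 0.05 (Hoxd11, Hoxd10 and Hoxd9), and the differences ran from -0.0509 ± 0.0617 at Hoxd4 to 0.225 ± 0.0782 at Hoxd9 (SE), those of Hoxd12, Hoxd11, Hoxd10 and Hoxd3 turning from negative to positive. For the interaction, the guide's difference with the receptor minus that without it, limma called 0 of 9 (0% of windows) and 1 reached an unadjusted p under 0.05, Hoxd4 (-0.541 ± 0.222, SE; adjusted p = 0.475). Without Asxl1 2 the Hoxd4 value came to -0.350 ± 0.0836 (SE; limma adjusted p = 0.162), with 0 of 9 called and the value of Hoxd13 turned positive (0.0237 ± 0.126, SE). A difference between the guide's effects with and without the receptor was therefore not shown, here or at any other window tested in the main fit. For double against Asxl1 and the interaction, the share of windows called without Asxl1 2 is not given here.

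Along the cluster the mean H3K27me3 fraction was lowest at Hoxd1 in each genotype and highest among the 5′ genes, with no strict order between. In CSF3R libraries the means ran from 0.914 ± 0.00496 at Hoxd11 over 0.890 at Hoxd10, 0.867 at Hoxd12, 0.840 at Hoxd13, 0.741 at Hoxd9, 0.711 at Hoxd8, 0.694 at Hoxd3 and 0.670 at Hoxd4 to 0.370 ± 0.050 at Hoxd1 (SD, n = 3). Neighbours in that order overlapped between libraries except Hoxd4 and Hoxd1. In double libraries the order was Hoxd13 (0.520 ± 0.116), Hoxd12, Hoxd9, Hoxd10, Hoxd11, Hoxd8, Hoxd3 (0.165 ± 0.0283), Hoxd4 and Hoxd1 (0.0432 ± 0.0378; SD, n = 2). There Hoxd13 and Hoxd12, and Hoxd3 and Hoxd4, did not overlap, and the other neighbours did.

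In 5 kb steps the marks had more structure than the gene windows show. The stretch from 5 to 10 kb past the start of Hoxd13, which holds the start of Hoxd12, had a mean H3K27me3 fraction of 0.685 in the double, 0.948 in the CSF3R and 0.845 in the control libraries. Between 55 and 65 kb, in the Hoxd4 gene and just past it, the double means were 0.05 and 0.025, against 1 and 0.542 in the CSF3R and 0.648 and 0.448 in the control libraries. On the left side, from Hoxd13 to the base before Hoxd3 (48.8 kb), H3K27me3 covered 0.338 and 0.349 in the double and 0.780 to 0.868 in the CSF3R libraries. On the right side, with Hoxd3, Hoxd4 and Hoxd1 (58.15 kb), it covered 0.150 and 0.137 in the double and 0.568 to 0.635 in the CSF3R libraries.

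**Figure D4:**
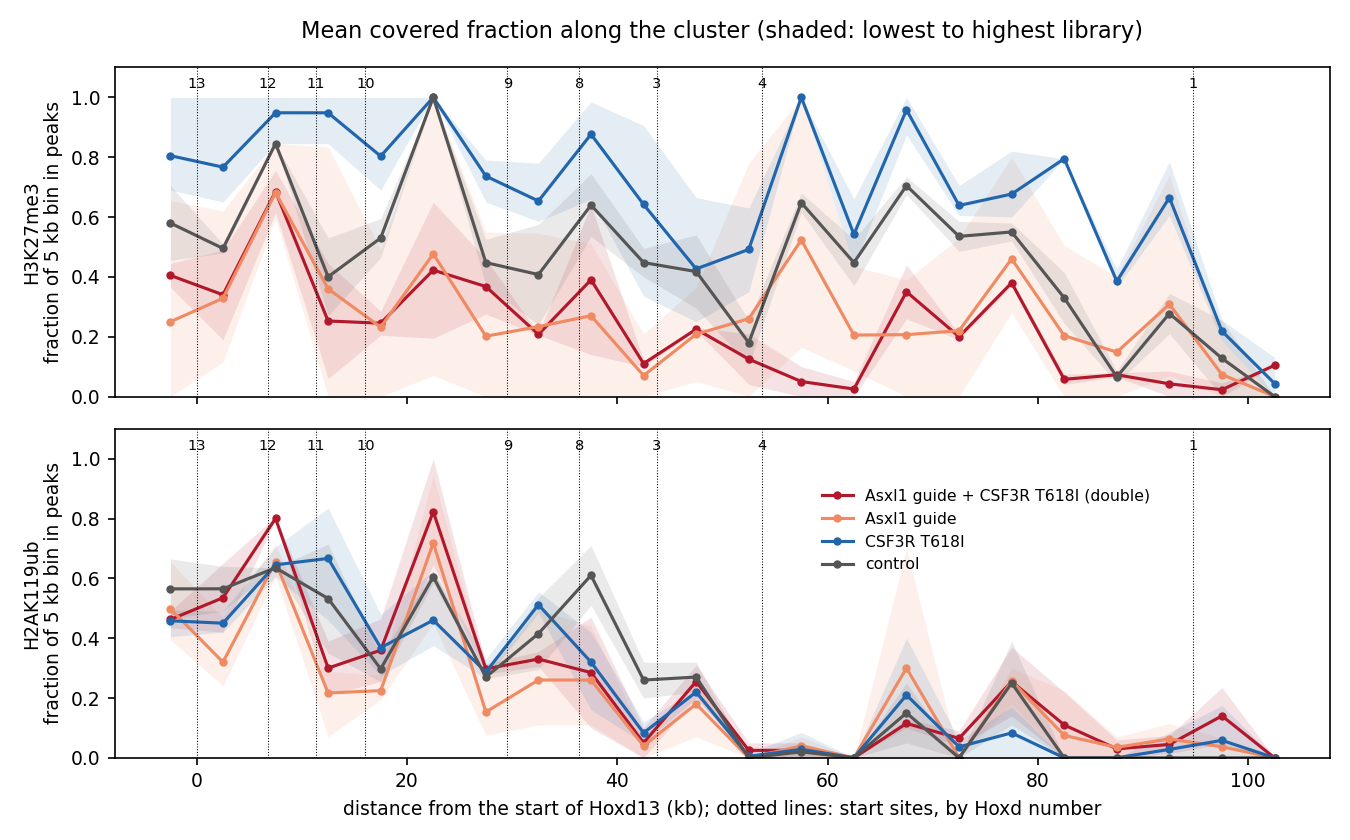
Mean covered fraction (y axis) of consecutive 5 kb bins along the cluster for H3K27me3 (top) and H2AK119ub (bottom), by distance from the start of Hoxd13 in kb (x axis); lines are genotype means and shading runs from the lowest to the highest library. The CSF3R line is highest for H3K27me3 in nearly all bins, and mean H2AK119ub past the start of Hoxd4 is at most 0.3 in any bin of any genotype.

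The microRNA gene Mir10b lies within the annotated span of Hoxd3 and Hoxd4. Its hairpin, chr2:74726070-74726137 on the plus strand of GRCm38.p6, gives the mature miRNA printed here from RefSeq with its seed, bases 2 to 8, in capitals.
mmu-miR-10b-5p: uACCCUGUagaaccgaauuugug
The hairpin lay in an H3K27me3 peak over its full length in CSF3R 1, 2 and 3, in Asxl1 2 and in control 1, and over 0.544 of it in control 2. No H3K27me3 peak touched it in double 1, double 2, Asxl1 1 or Asxl1 3, and no H2AK119ub or H3K4me1 peak touched it in any library. Peaks are far longer than the hairpin, so this describes the place and not the miRNA gene alone.

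H2AK119ub covered more of the 5′ side of the cluster than of the 3′ side in every library. Its peaks covered 31.2 and 21.9 kb of the cluster in the double, 18.05, 20.6 and 26.35 kb in the Asxl1, 20.85, 28.65 and 24.3 kb in the CSF3R, and 28.15 and 26.3 kb in the control libraries. The left side was covered to 0.298 to 0.501 and the right side to 0.0464 to 0.138 over the 10 libraries, so that every library had more of the mark on the left than any had on the right. Whole-library peak length was 39.1 and 22.6 Mb in the double, 11.8, 13.4 and 16.7 Mb in the Asxl1, 18.8, 28.7 and 28.2 Mb in the CSF3R, and 21.2 and 19.9 Mb in the control libraries. Per Mb of library peaks, the cluster held 797 and 969 bp in the double and 1530, 1540 and 1580 bp in the Asxl1 libraries. It held 1109, 999 and 861 bp in the CSF3R and 1329 and 1319 bp in the control libraries. On that scale every Asxl1 library lay above all others, whereas the Asxl1 group had the lowest mean in kb.

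Hoxd8 was the 1 Hoxd gene with a called difference in this mark. Its fraction was 0.128, 0.120 and 0.265 in the Asxl1 libraries, against 0.483 and 0.345 in the control libraries, and the groups did not overlap. limma with Benjamini-Hochberg adjustment called it lower in Asxl1 against control (-0.243 ± 0.0670, SE; adjusted p = 0.0492), 1 of 8 Hoxd genes tested, against 10.5% of 2859 windows called lower and 0.35% higher. Hoxd4 did not pass the filter and was not tested. Groups did not overlap, Asxl1 below control, at 4 of 8 genes (Hoxd13, Hoxd12, Hoxd10 and Hoxd8), against 59.3% of windows. The members' median difference was -0.114, against -0.0649 over all windows, which were not matched for level.

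The Hoxd8 call was near the threshold and depended on single libraries. It was lost without control 1, control 2, Asxl1 1, Asxl1 2, CSF3R 2 or CSF3R 3, and without Asxl1 3 Hoxd9 was called beside Hoxd8. It was also lost with library covered length as a covariate, when 1.05% of windows were called lower. In the groups with the receptor Hoxd8 had 0.315 and 0.143 in the double and 0.183, 0.281 and 0.254 in the CSF3R libraries, all below both controls.

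Hoxd13 had the highest H2AK119ub of the 9 genes in every genotype mean, with 0.679 and 0.572 in the double, 0.467, 0.583 and 0.587 in the Asxl1, 0.549, 0.621 and 0.561 in the CSF3R, and 0.725 and 0.594 in the control libraries. The groups overlapped or lay close, and Asxl1 minus control was -0.114 ± 0.0550 (SE; limma adjusted p = 0.201). Hoxd12 had 0.582 and 0.500 in the double, 0.382, 0.413 and 0.339 in the Asxl1, 0.460, 0.618 and 0.505 in the CSF3R, and 0.499 and 0.543 in the control libraries. All 3 Asxl1 libraries were below every library of the other genotypes at this gene, with an unadjusted p under 0.05 and adjusted p = 0.0937 in limma against control.

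Hoxd11 had 0.613 and 0.404 in the double, 0.384, 0.467 and 0.292 in the Asxl1, 0.364, 0.542 and 0.519 in the CSF3R, and 0.390 and 0.507 in the control libraries, with overlap between all pairs of groups. At Hoxd10 the values were 0.537 and 0.377 in the double, 0.317, 0.391 and 0.348 in the Asxl1, 0.420, 0.566 and 0.557 in the CSF3R, and 0.441 and 0.490 in the control libraries. The Asxl1 libraries lay below the CSF3R and control libraries there and overlapped the double ones. Hoxd9 had 0.393 and 0.345 in the double, 0.204, 0.172 and 0.433 in the Asxl1, 0.413, 0.486 and 0.446 in the CSF3R, and 0.494 and 0.397 in the control libraries, where Asxl1 3 lay apart from Asxl1 1 and 2.

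The 3′ genes held little H2AK119ub. Hoxd3 ranged from 0.0573 to 0.161 over the 10 libraries, Hoxd1 from 0 to 0.127 and Hoxd4 from 0 to 0.0291. Hoxd1 had no peak of the mark in either control library and had one in double 1, double 2, Asxl1 2, Asxl1 3 and CSF3R 2. Hoxd4 thus carried up to 0.757 of H3K27me3 with at most 0.0291 of H2AK119ub.

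**Figure D5:**
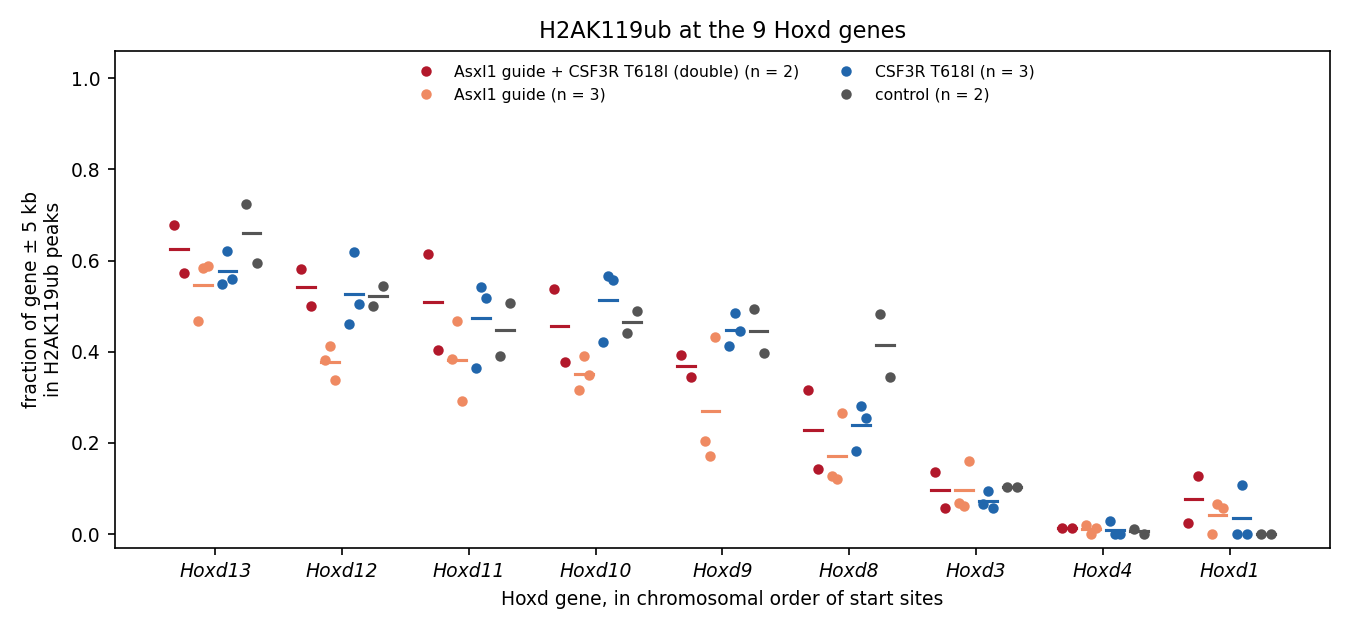
Covered fraction of H2AK119ub (y axis) at the 9 Hoxd genes ± 5 kb, in chromosomal order, with 1 point per library and a bar for the group mean. Values fall from 0.467 to 0.725 at Hoxd13 to at most 0.0291 at Hoxd4, and at Hoxd8 both control libraries are above the other 8.

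In the remaining comparisons of H2AK119ub limma called 0 of 8 Hoxd genes. For double against CSF3R 0 reached an unadjusted p under 0.05, and 4.16% of windows were called higher and 7.66% lower. For CSF3R against control 1 did (Hoxd8, -0.175 ± 0.0670, SE), and 0.49% of windows were called higher. For double against Asxl1 1 did (Hoxd12, 0.163 ± 0.0498, SE; adjusted p = 0.0708), with 9.83% of windows called higher and 0.175% lower, and the groups did not overlap at 1 of 8 genes, against 46.1% of windows. For double against control 1 did (Hoxd8, -0.185 ± 0.0734, SE), with 4.76% of windows called higher and 2.38% lower. For the interaction 1 did (Hoxd8, 0.233 ± 0.0948, SE; adjusted p = 0.414), with 0% of windows called.

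Both marks met in small places shared by all libraries. Bases in H3K27me3 peaks of all 10 libraries made 6 stretches with 5.05 kb in all, of 92.25 kb that were in a peak of at least 1 library. For H2AK119ub there were 9 such stretches with 9.1 kb, of 47.25 kb. Of these, 4 stretches with 4.1 kb lay in peaks of both marks in all 20 libraries. The widest, chr2:74673101-74676200 (3.1 kb), runs from the space between Hoxd13 and Hoxd12 into Hoxd12 and holds its start site. The others were chr2:74668301-74668750 in Hoxd13, chr2:74692601-74692950 in Hoxd10 and chr2:74715851-74716050 in Hoxd3, each within a gene and past its start site. The Hoxd12 promoter printed above lies within the widest one. The H3K27me3 library Asxl1 1 had only 8 peaks with 7.25 kb in the cluster, and no such stretch can reach past them. The widest stretch and those in Hoxd13 and Hoxd10 each match a whole peak of that library base for base, so their edges are its edges.

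Over the 10 Hoxd promoter windows, H3K27me3 peaks touched 4 and 6 in the double, 2, 8 and 6 in the Asxl1, 10, 10 and 9 in the CSF3R, and 5 and 7 in the control libraries. H2AK119ub peaks touched 6 and 5 in the double, 5, 6 and 5 in the Asxl1, 5, 8 and 6 in the CSF3R, and 8 and 6 in the control libraries. The Hoxd3 promoter had H3K27me3 only in the 3 CSF3R libraries and the Hoxd4 promoter only in CSF3R 1, CSF3R 2 and Asxl1 2. Hoxd11 has 2 start sites in RefSeq: the first, with 4 CG dinucleotides, carried H3K27me3 in 5 libraries and H2AK119ub in 3, and the second, with 25, carried them in 6 and 7. Hoxd10 (22 CG dinucleotides) and Hoxd9 (20) each carried H3K27me3 in 8 libraries and H2AK119ub in 9.

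The share of H2AK119ub inside H3K27me3 was highest in the CSF3R libraries and Asxl1 2, while the share of H3K27me3 inside H2AK119ub was lowest there. Among libraries of the same genotype and number, the share of H2AK119ub peak length in the cluster that lay inside H3K27me3 peaks was 65.1% and 64.6% in the double, 27.1%, 98.8% and 49.7% in the Asxl1, 100% in each of the 3 CSF3R, and 72.6% and 86.3% in the control pairs. Of the H3K27me3 length, 80.6% and 56.7% lay inside H2AK119ub in the double, 67.6%, 33.4% and 63.4% in the Asxl1, 26.3%, 40.3% and 32.6% in the CSF3R, and 43.1% and 42.6% in the control pairs. The shares describe pairs of separate libraries, which the numbers do not tie to the same cells, and the lists differ in length.

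H3K4me1 was not called anywhere in the cluster. No peak of the mark touched any of the 9 gene windows in any of the 10 libraries, which was also the case for 62.6% of all 21887 windows, for 75.4% of the 2755 windows tested for H3K27me3 and for 27 of 30 other Hox genes. On the left the nearest H3K4me1 peak lay 52.97 to 53.6 kb before the stretch, between Lnpk and Evx2, in every library. On the right the nearest lay 622 to 867 kb away. With no value above 0, no test of H3K4me1 was possible for these genes, and with depth unknown a weak signal below the peak threshold was not detectable.

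Beyond the cluster on the 3′ side, the last H3K27me3 peak before Mtx2 lay 49.7 and 48.0 kb past Hoxd1 in the double libraries, 58.6 kb past it in Asxl1 2, 58.8 kb past it in each CSF3R library and 48.7 kb past it in control 2. In Asxl1 1, Asxl1 3 and control 1 no such peak passed the end of Hoxd1. There the last peak ended at -1.99, -1.74 and -3.14 kb relative to that end, so the control libraries differed from each other. Mtx2, a gene of mitochondrial protein import, had at most 0.0139 of H3K27me3 and 0.00492 of H2AK119ub in any library. On the 5′ side Evx2, a homeobox gene of limb and spinal cord whose window overlaps that of Hoxd13, had 0.328 and 0.254 of H3K27me3 in the double, 0.0621, 0.527 and 0.151 in the Asxl1, 0.927, 0.611 and 0.660 in the CSF3R, and 0.541 and 0.641 in the control libraries. It followed the Hoxd genes, with double minus CSF3R at -0.442 ± 0.139 (SE; limma adjusted p = 0.0633). Lnpk, an endoplasmic reticulum gene farther out, had no H3K27me3 and at most 0.00268 of H2AK119ub.

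The other Hox clusters give the setting for the Hoxd count in double against CSF3R. limma called H3K27me3 lower at 1 of 10 Hoxa genes tested, 3 of 9 Hoxb genes and 4 of 9 Hoxc genes, against 5 of 9 Hoxd genes and 13.1% of windows. The largest differences there were at Hoxa9 (-0.626), Hoxb9 (-0.740) and Hoxc9 (-0.716), each larger than that of Hoxd4. For H2AK119ub, Asxl1 against control had 1 of 7 Hoxb and 1 of 8 Hoxd genes called lower, against 10.5% of windows. No Hoxa or Hoxc gene tested was called there, and Hoxb6 had the largest Hoxb difference. Double against CSF3R had 1 of 7 Hoxb genes called higher in H2AK119ub, Hoxb7 (0.265 ± 0.0705, SE; limma adjusted p = 0.0434). Double against Asxl1 had 3 of 7 Hoxb genes called higher, with Hoxb7 again the largest, and 0 of 8 Hoxd genes. Whether the Hox clusters differ from each other was not tested.

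The genes whose H3K27me3 fractions were most like the mean of the 9 Hoxd genes over the 10 libraries were Foxb1, a forkhead factor, with a mean absolute difference of 0.0436, Bsx, a homeobox gene (0.0482), Hoxc5 (0.0507) and Nkx2-6, a homeobox gene (0.0574). The mean fraction of the 9 Hoxd genes was 0.271 in the double, 0.307 in the Asxl1, 0.744 in the CSF3R and 0.497 in the control libraries. Single Asxl1 libraries had 0.0891, 0.606 and 0.226, and without Asxl1 2 the Asxl1 mean came to 0.158, below that of the double. For H2AK119ub the most alike were Sdhb, a subunit of succinate dehydrogenase (0.0337), Zic5, a zinc finger factor (0.0337), Tpm4, a tropomyosin (0.0342), and Zfp651, a zinc finger gene (0.0368).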

How the data were processed

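CUT&Tag reads were aligned with Bowtie2 2.4.1 to mm10 and handled with deepTools 3.5, per the submitters' processing notes. For the peak calling, neither tool nor cutoff is given in the sources used here. What the authors deposited falls under other units: peak start and end positions in bp, 1 list per library and 1 for 2 merged IgG libraries, with no height or score. Peak widths were almost all multiples of 50 bp, and the narrowest was 200 bp.

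From these, the fraction of each gene ± 5 kb in peaks was computed for 21887 protein-coding genes (RefSeq, GRCm38.p6). Windows that reached 0.1 in 2 or more of 10 libraries were fitted, per mark, with limma 3.58.1 in R 4.3.3 (4 group means over all 10 libraries, moderated variances, 2-sided), and p was adjusted by Benjamini-Hochberg over all windows tested within a mark and comparison, with calls at an adjusted p under 0.05. The script was tested on simulated data with the same noise at every window, which is simpler than these data. That test checks the code and does not bear on the calls made here. Layout, promoters and overlaps are descriptions without tests. Python 3.11.15, numpy 2.4.6, pandas 2.3.3 and matplotlib 3.10.9 were used.

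All 9 Hoxd genes, their flanking genes Evx2, Lnpk and Mtx2, the other Hox genes (counts, and the largest difference where a call was made) and, per mark, the 4 most alike genes (Gm and Rik symbols left out) are named. The members and lists were chosen with earlier results of these data known. The alternatives were a gene body or 2 kb window, other filters, masked IgG peaks, peaks under 500 bp left out, an arcsine scale, library covered length as a covariate, a block for replicate number and leaving out each library. Leaving out Asxl1 2 together with the covariate was chosen after seeing the data.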

Additional observations from a re-analysis of the deposited data

How the results depend on the processing

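The differences between double and CSF3R in H3K27me3 kept their negative sign at 9 of 9 Hoxd genes in all 20 alternatives. The calls did not hold throughout, and the cause was not tested. The main count of 5 lower genes came to 0 with the gene body alone, 3 with 2 kb on each side, 0 without a filter (more windows tested), and 8 with covered length as a covariate. It ranged from 0 to 9 when single libraries were left out. The share of all windows called moved too, as given above for the fits without Asxl1 2, without Asxl1 1 and with the covariate. Counts given in this section without that share do not tell a change at the Hoxd genes from a change over all windows. In H3K27me3, Asxl1 against control had 0 genes called, 2 with the covariate, 0 to 7 when single libraries were left out (7 without Asxl1 2), and 1 without Asxl1 2 and with the covariate together. CSF3R against control had 0, and 0 to 7 when single libraries were left out (7 without Asxl1 2). No Hoxd gene was called in any other alternative of that comparison, the covariate included. Double against control had 0, 2 with the covariate, 0 to 3 when single libraries were left out (3 without Asxl1 2), and 4 with both changes. In H2AK119ub, Asxl1 against control had 1, and 0 with the gene body alone, 2 kb, short peaks left out, no filter or the covariate, and 0 to 2 when single libraries were left out. CSF3R against control and double against control each had 1 with the covariate, Hoxd8, lower in both. Double against Asxl1 had 0 to 1 when single libraries were left out, 1 (Hoxd12) without CSF3R 2 or without double 2. The double H3K27me3 length in the cluster, 25.1 kb, came to 24.8 kb with IgG peaks masked and 22.5 kb without peaks under 500 bp. No alternative could be run for H3K4me1, since no Hoxd window held a peak. Depth is unknown and sets what a peak list can show.

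To see whether the numbers pair the libraries, the mean of its genotype was first taken from each library at every tested window. Correlations of these deviations between same-numbered libraries of different genotypes (13 pairs) ranged from -0.406 to 0.316 in H3K27me3. They ranged from -0.147 to 0.0597 in H2AK119ub and from -0.0968 to 0.437 (median 0.188) in H3K4me1. These are not correlations of the libraries themselves. In no mark did every pair exceed 0.1, so the numbers were not taken to pair the libraries. With the replicate block, 0 Hoxd genes were called in double against CSF3R for H3K27me3 and 0 in Asxl1 against control for H2AK119ub.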
